A study of Mus musculus with 8 samples.

Results

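5-hydroxymethylcytosine (5hmC) peaks that recurred in all 3 hMeDIP-seq comparisons, at places where no 5-methylcytosine (5mC) peak was listed, were examined in lung DNA of F1 male mice. Members are rows of one hMeDIP-seq list, F0-HDM_F1-HDM against F0-Saline_F1-HDM, that share at least 1 base with a row of both other hMeDIP-seq lists and with no row of the 3 MeDIP-seq lists. They were chosen by the lists themselves, so that recurrence and the absence of a MeDIP-seq row are not findings. Of the 89177 rows of that list, 17100 were members, a share of 19.2%. The 6 lists together hold 329018 rows.

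All mice were C57Bl/6J males. In F0-HDM_F1-HDM and F0-HDM_F1-Saline the dam had received 100 μg of house dust mite (HDM) intraperitoneally before mating and then intratracheally through pregnancy and lactation, and in F0-Saline_F1-HDM and F0-Saline_F1-Saline she had received saline. The offspring were sensitized with HDM or saline from 6 weeks of age and challenged on days 14, 18 and 21, with airway measurements on day 23. DNA was pooled over mice of 3 dams, so that each group gave 1 library per assay, 8 libraries in all, and no test between groups was possible. Each list compares a first library with a second: F0-HDM_F1-HDM against F0-Saline_F1-HDM (called the both-exposure list here), F0-HDM_F1-Saline against F0-Saline_F1-Saline (the maternal list) and F0-Saline_F1-HDM against F0-Saline_F1-Saline (the adult list). Scores of a member are given in that order throughout. The lists share libraries. F0-Saline_F1-HDM is the second library of one list and the first of another, and F0-Saline_F1-Saline is the second library of 2 lists, so the lists are not independent of each other. The direction of a change is not stated in them. Depth per peak is unknown, as reads were not analysed here. Whole lung holds many cell types, and a place marked in few cells cannot be told apart from one weakly marked in many. Expression was not measured here, so the tissue could not be checked against its markers.

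5hmC is made from 5mC by the TET dioxygenases and is known both as a step in the removal of methylation and as a lasting mark of gene bodies and enhancers. Both marks sit almost entirely on CpG dinucleotides in adult tissue. In the mouse genome many CpG lie in transposable elements, whose promoters and terminal repeats are rich in CpG and are normally kept methylated and silent. L1 elements of the mouse start with a promoter built of tandem monomers, and endogenous retroviruses are flanked by a long terminal repeat at each end.

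The members fell into 2 kinds of place, repeated DNA and unrepeated sequence that lay mostly on exons, with few between. In 61.5% of them 90% or more of the bases are marked as repeated sequence in the reference (lower-case bases), in 24.8% under 10% are, and the 8 classes between hold the rest. Places with 50% or more repeated sequence are called repeat members here and the others non-repeat members. Repeat members numbered 11919 (69.7%, 95% Clopper-Pearson interval 69.0 to 70.4%) and non-repeat members 5181. Of the 37379 rows found in the both-exposure list alone, with no row in any other list, 21.6% were repeats, and of the 942 rows found in all 6 lists 59.2% were. Over all rows of the list the share was 36.9%. Intervals cover counting error only, and rows of one library are not replicates.

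**Figure D1:**
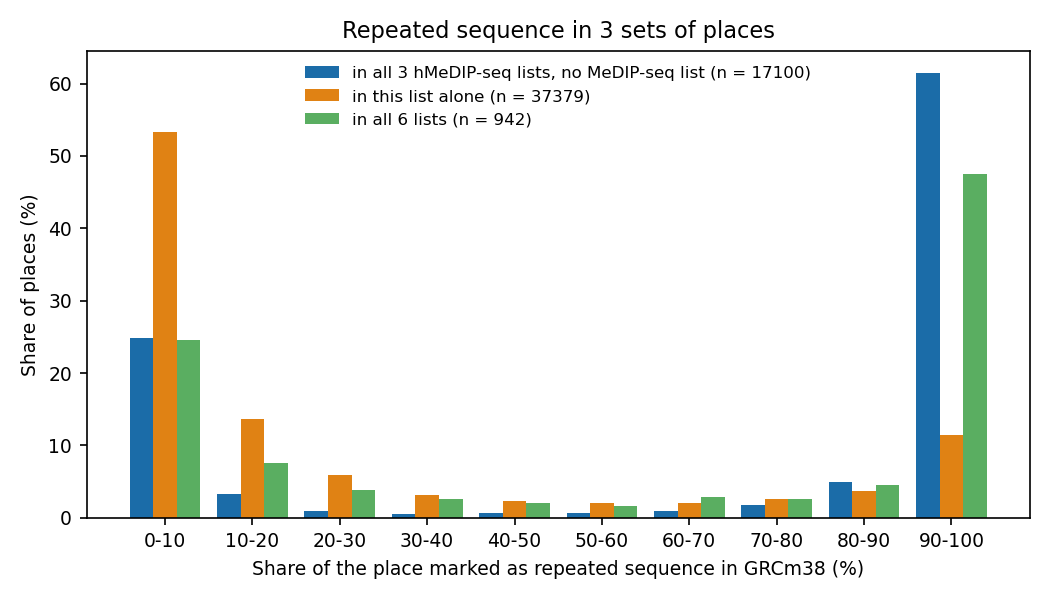
Share of places (y axis, %) by the share of their bases marked as repeated sequence (x axis, 10 classes), for the members, the rows in this list alone and the rows in all 6 lists. The members pile up at both ends, with 61.5% in the highest class and 24.8% in the lowest, while 53.3% of the rows in this list alone are in the lowest class.

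Sequence set the repeat members apart further. They were sorted into groups by shared 12-bp words in the 301 bp around the peak centre, where 60 shared words put a member into a group. The 12 groups with at least 100 members held 10384 members (60.7%), all of them repeat members, which is 87.1% of the repeat members. The 4 largest held 7645 (44.7%). No table of repeat families was used here, so the groups are numbered by size. As examples, 121 bases around the centre of 1 member of each of the 6 largest groups follow, read from the plus strand of GRCm38 with each CpG in capitals. All 6 lie between genes. These copies were picked after the values were seen, as the highest-scoring member outside exons among those whose sequence could be printed.
group 1, chr2:7577801-7577921: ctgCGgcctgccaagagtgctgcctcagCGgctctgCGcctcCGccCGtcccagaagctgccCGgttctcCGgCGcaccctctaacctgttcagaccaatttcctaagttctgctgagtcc
group 2, chr10:52521250-52521370: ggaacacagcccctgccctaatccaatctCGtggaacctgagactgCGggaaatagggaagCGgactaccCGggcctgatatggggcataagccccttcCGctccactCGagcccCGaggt
group 3, chr7:8580075-8580195: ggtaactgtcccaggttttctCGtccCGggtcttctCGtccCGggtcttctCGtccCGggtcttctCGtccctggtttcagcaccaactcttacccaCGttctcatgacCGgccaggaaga
group 4, chr12:22043137-22043257: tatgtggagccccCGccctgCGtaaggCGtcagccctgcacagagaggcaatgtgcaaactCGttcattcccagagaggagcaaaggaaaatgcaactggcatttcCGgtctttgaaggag
group 5, chr2:15244601-15244721: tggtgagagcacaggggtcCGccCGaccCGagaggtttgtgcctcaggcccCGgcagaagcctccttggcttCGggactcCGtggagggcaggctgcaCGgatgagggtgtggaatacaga
group 6, chr19:20063513-20063633: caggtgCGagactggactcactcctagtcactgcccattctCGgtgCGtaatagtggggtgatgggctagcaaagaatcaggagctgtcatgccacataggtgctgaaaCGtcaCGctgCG

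Groups 1, 2 and 5 were tandem repeats with a unit of about 200 bp. The 1600 bp around the peak matched themselves at over 60% of the bases after a shift in 23.1% of the members of group 1, 12.4% of group 2 and 5.13% of group 5, with median shifts of 212, 208 and 206 bp. A neighbouring unit 150 to 260 bp away in the same orientation was found beside 91.6% of the 2652 members of group 1, 76.2% of the 1849 of group 2 and 55.1% of the 799 of group 5. Group 9, with 265 members, overlaps group 5 in sequence, since 66.8% of its members lie on copies of group 5. Such arrays of monomers are known from the promoters of mouse L1 elements. These groups had the highest GC content of the 12, with medians of 64.6% in group 1, 62.2% in group 2, 64.9% in group 5 and 63.5% in group 9, against 57.1% over all members. The median CpG content per 100 bp was 5.88, 5.38, 6.49 and 5.62.

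Groups 3, 4, 7 and 8 lay beside each other at set distances. Copies of group 3 (1754 members) recurred 6700 to 6800 bp apart in the same orientation in 457 cases, as copies of group 7 (432 members) did in 501. Group 7 covers part of the same sequence, as 97.3% of the members of group 3 lie on a copy of group 7. Copies of group 4 (1390 members) lay 900 to 1000 bp from a copy of group 3 in 912 cases and 5700 to 5800 bp from one, on the other side, in 623. Copies of group 8 (364 members) lay 100 to 200 bp from one in 554 cases. A pair of like sequences in the same orientation with another sequence between them is the arrangement known from retroviral elements with a terminal repeat at each end. Group 6 (517 members) had a spacing of its own, with 114 pairs 7900 to 8000 bp apart in the same orientation. CpG content per 100 bp had a median of 5.63 in group 3, 5.97 in group 4 and 5.26 in group 6.

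Across the whole genome, most copies of these sequences carried a hMeDIP-seq row and few a MeDIP-seq row. Copies were found by aligning the seed of each group (the member that shares words with the most others) at 80% identity over at least 150 bp and merging what overlapped. Group 4 had the highest share of copies in all 3 hMeDIP-seq lists, 82.0%. Of its 1821 copies, 97.6% (96.8 to 98.3%) had a row in the both-exposure list, 95.3% in the maternal list and 83.7% in the adult list, and 1.81% had none of the 3. In the MeDIP-seq lists the shares were 2.47%, 4.39% and 3.95%. Of the 4439 copies of group 1, 89.8%, 75.5% and 67% had a hMeDIP-seq row and at most 4.12% a MeDIP-seq row. The 4923 copies of group 2 had 81.2%, 64.5% and 53.5%. In group 6 the shares were the lowest for the first list, 62.7%, with 55.2% and 39.4% in the others, and 32.6% of its 2480 copies had no hMeDIP-seq row. Members cover only a part of each group, from 10.2% of the copies of group 12 to 77.3% of those of group 4. The MeDIP-seq shares were higher in groups 3, 7 and 8, up to 12.7%, 14.8% and 17.5% in the maternal MeDIP-seq list. That list is the longest of the 3 MeDIP-seq lists, which hold 13338, 88438 and 63967 rows. Both the high hMeDIP-seq and the low MeDIP-seq shares follow in part from the rule, since the seeds and many of the copies are members.

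**Figure D2:**
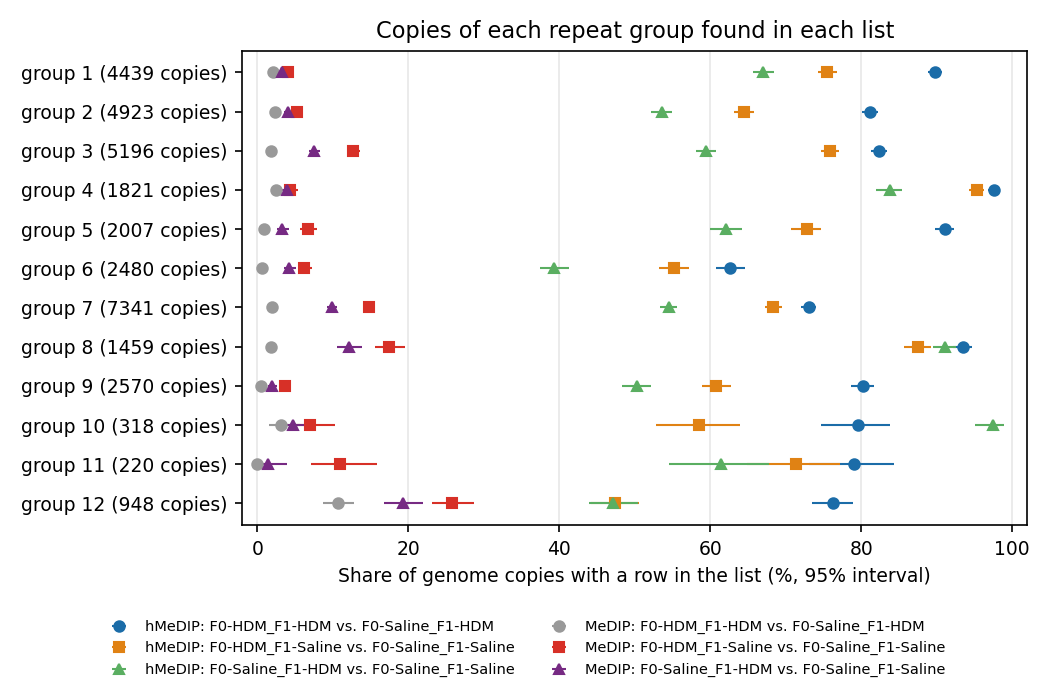
Share of the genome copies of each of the 12 repeat groups (y axis) that have a row in each of the 6 lists (x axis, %, with 95% Clopper-Pearson intervals). The 3 hMeDIP-seq lists sit at 39.4% or above and the 3 MeDIP-seq lists at 25.8% or below in every group. Group 10 is the one whose highest point is the adult list.

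Group 10 had another order of the lists. It has 318 copies and 147 members, with 7.67 CpG per 100 bp, the highest median of the 12 groups. Of its copies 97.5% (95.1 to 98.9%) had a row in the adult list, 79.6% (74.7 to 83.9%) in the both-exposure list and 58.5% (52.9 to 64%) in the maternal list. In the other 11 groups the share was highest for the both-exposure list, the longest of the 3 lists. The lists hold 89177, 38333 and 35765 rows, and such shares move with the length of a list. Group 12 stood apart in MeDIP-seq, where 10.7%, 25.8% and 19.3% of its 948 copies had a row. The order of these shares is that of the lengths of the MeDIP-seq lists.

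Copies that carried a member held more CpG than copies outside the hMeDIP-seq lists. In group 1 the median was 5.88 CpG per 100 bp in copies with a member and 3.36 in copies with no hMeDIP-seq row. In group 4 it was 6.62 and 3.45, and in group 2 it was 5.30 and 3.15. The gap was smallest in group 8, with 6.13 and 5.69, but only 10 of its 1459 copies had no hMeDIP-seq row. How often copies of different identity to the seed were members varied by group. The identity of a copy is the highest of the alignments merged into it. Its relation to the length of a copy, as in tandem arrays, was not tested. In group 2 a member was found on 7.25% of the copies with 80 to 90% identity, 38.6% of those with 90 to 95% and 44.3% of those above. In group 3 these shares were 31.5%, 57.8% and 62.9%. They did not rise throughout in group 4 (71.5%, 84.9% and 79.9%), group 8 (59.6%, 68.1% and 64.7%) or group 10 (50%, 40.6% and 54.2%). In group 1, 59.8% of the copies inside genes and 53.3% of those outside carried a member. Group 6 had 44.6% and 25%. These are descriptions, since the choice of members also chose the seeds.

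Most repeat members are places where many 51-bp windows match more than 1 position of the genome. At the median repeat member 87.0% of these windows, the length of 1 read of a pair, have another exact copy. At the median non-repeat member 0% do, and at the median of the 8069 repeat rows found in this list alone 53.6%. In 82.6% of the repeat members 50% or more of the windows have such a copy. A window of a member of group 1 had a median of 352 copies, one of group 3 194, and one of group 5 had 10. In groups 6 and 9 the median window had 1 copy, itself, and 49.0% and 49.3% of the windows had another at the median member. The paper names paired reads, and windows were counted singly, so how many whole read pairs match several positions is not known. How reads with several equal positions were placed is not given in the sources used here, and its part in these rows was not tested. The coordinates of a repeat row name one copy of a family.

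The peak shape score of the authors' caller, a normal deviate that grows with how well the read coverage matches a peak, ranked the groups differently in the 3 lists. Over all members the median score was 2.48 (quartiles 2.02 and 2.97) in the both-exposure list, and the overlapping rows had 1.77 in the maternal list and 2.0 in the adult list. All rows of these lists had medians of 1.8, 1.65 and 1.82. The lowest score of a member was 1.28 in each list, near the listing limit of a p of 0.1. Many of the scores given below for single genes in the maternal and adult lists are close to it. Members of group 3 were at the median percentiles 88.1, 85.4 and 64.4 of the 3 lists. Members of group 1 were at 82.4, 66.7 and 83.1, and 29.1% of them were among the top 5% of the adult list, against 1.14% of the members of group 3. Group 10 had 64.2, 42.2 and 86.5. Non-repeat members were at 78.8 in the first list and at 41.2 and 49.7 in the others, and all members at 81.0, 60.5 and 59.6. Members made up 17100 of the 89177 rows of the first list. When the rule starts from the other lists, they make up 16776 of 38333 and 16291 of 35765 rows. A higher percentile in the first list thus follows in part from the rule and the length of that list. Scores of different lists are on the scale of their own libraries, and the percentiles were not tested.

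**Figure D3:**
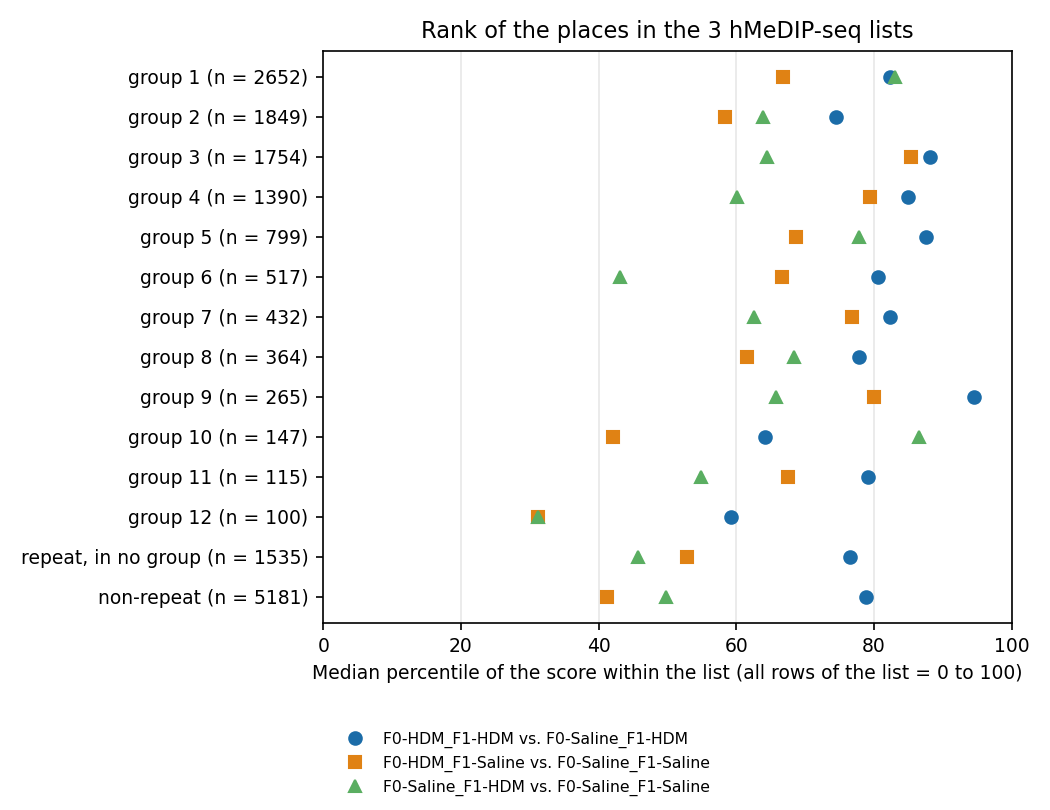
Median percentile of the score within each hMeDIP-seq list (x axis) for the 12 repeat groups, the other repeat members and the non-repeat members (y axis). The tandem groups 1 and 5 rank higher in the adult list (83.1 and 77.8) than in the maternal list (66.7 and 68.6), and groups 3 and 4 the other way round (64.4 against 85.4 and 60.1 against 79.4).

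Short sequence motifs also separated the groups. AAGATGGCG, the core of the YY1 site, was found on either strand of the 301 bp around the centre in 77.0% of group 1, 89.0% of group 5, 62.3% of group 7 and 48.9% of group 6, and in no member of groups 2 and 4, while 9.51% of all rows of the list held it. Non-repeat members held it in 0.907%. TGACGTCA, the full cyclic AMP response element, stood in 59.1% of group 3 and 14.1% of group 7. It stood in 2.69% of all rows and 5.89% of all repeat rows. GGGCGG, the GC box, stood in 91.2% of group 4, 69.8% of group 5 and 56.5% of group 1, against 16.5% of all rows. CACGTG, the E-box, stood in 4.25% of members and 8.55% of all rows, but the shares were close within each kind of place. All repeat rows had 4.08%, non-repeat members 10.7% and all non-repeat rows 11.2%. Over all repeat rows of the list AAGATGGCG stood in 24.7%, and over all members in 23.9%. Copies of a family share their letters, so each family counts as about 1 sequence, and a match is not a bound site.

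Repeat members lay mostly between genes. A gene overlapped 26.5% of them, an exon 1.87% and a coding part of an exon 0.0755%, and 4.49% were within 2 kb of a transcription start. Repeat rows found in this list alone had 26.1%, 3.37%, 0.235% and 6.92%. All repeat rows of the list had 26.6%, 2.62%, 0.270% and 6.02%. On chromosome X 903 of 925 members were repeats (97.6%), and on chromosome Y 200 of 218. The lowest share was 48.9% on chromosome 11, where 380 of 743 members were non-repeat. Density over the genome was 6.46 members per Mb of sequence without gaps, with 7.87 on chromosome 7 as the highest and 2.47 on Y as the lowest. Non-repeat members reached 3.20 per Mb on chromosome 11 and 0.135 on X. Members of both kinds made up 31.8% of all rows on X, the highest share of any chromosome. All mice were male, and the densities were not adjusted for the number of copies of X and Y.

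**Figure D4:**
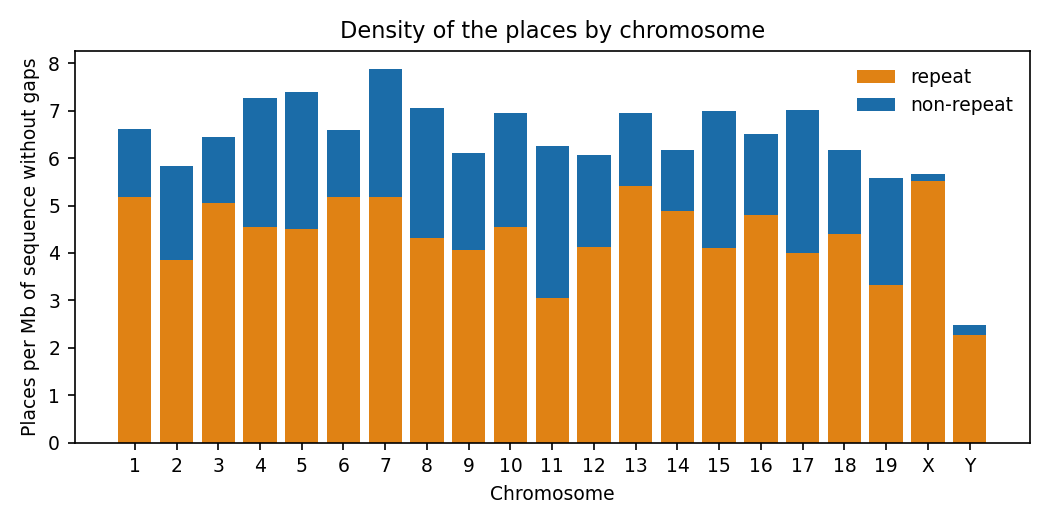
Members per Mb of sequence without gaps (y axis) on each chromosome (x axis), split into repeat and non-repeat members. Repeat members range from 2.27 per Mb on Y to 5.52 on X, and non-repeat members from 0.135 on X to 3.20 on chromosome 11.

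Non-repeat members lay in genes and above all on coding exons. A gene overlapped 86.7% of the 5181 (interval 85.7 to 87.6%), an exon 72.6% (71.3 to 73.8%) and a coding part 61.1% (59.7 to 62.4%). For the 29310 non-repeat rows found in this list alone the shares were 75.9%, 42.1% and 33.9%. All 56232 non-repeat rows of the list, members included, had 79.3%, 50.7% and 41.8%. Within 2 kb of a transcription start were 35.8% of the members, 22.8% of the rows found in this list alone and 26.6% of all non-repeat rows. Within 200 bp were 13.8%, 6.11% and 7.81%. The CpG content of the members was 4.53 per 100 bp at the median. It was 3.06 in the rows found in this list alone and 3.42 in all non-repeat rows. Rows of this list alone also had lower scores, 1.54 at the median against 2.41, and no share was tested. In the longest coding transcript of each gene with 3 or more exons, 76.7% of the members on an exon were on an internal one, 19.7% on the last and 3.60% on the first. The rows found in this list alone had 81.3%, 16.5% and 2.16%. The internal exons that held a member had a median length of 198 bp, compared with 124 bp for all internal exons. The corresponding length for rows found in this list alone was 156 bp.

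**Figure D5:**
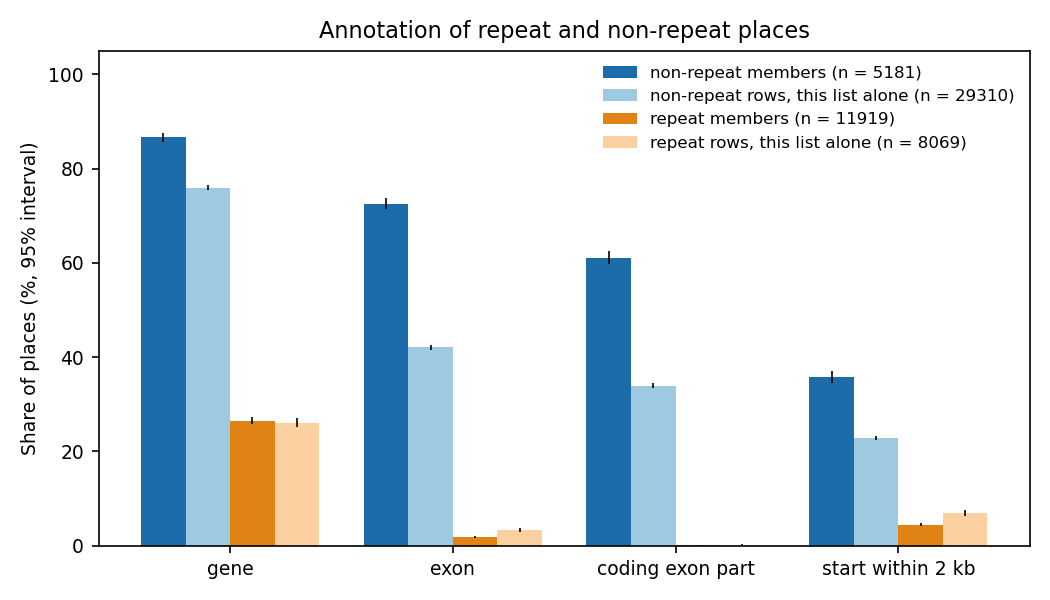
Share of places (y axis, %, with 95% Clopper-Pearson intervals) that overlap a gene, an exon or a coding part of an exon, or have a transcription start within 2 kb (x axis), for non-repeat and repeat members and for rows found in this list alone. Coding parts were overlapped by 61.1% of the non-repeat members, 33.9% of the non-repeat rows of this list alone, and under 1% of both kinds of repeat rows.

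Protein-coding genes with a member numbered 4078 of 21951 (18.6%), of which 3116 held a non-repeat member (14.2% of all) and 1238 a repeat member. Genes with a repeat member had a median span of 149 kb, those with a non-repeat member 38.9 kb, and all protein-coding genes 17.4 kb. Most of them, 2716, held a single member, and 146 held 5 or more. The largest number, 59, was in the model Gm20388, which spans 4435 kb of other genes on chromosome 8. Gm42416, Gm37013 and Gm37388, long models that overlap each other, had 22, 20 and 20. Among single genes Tiam1, an exchange factor that activates Rac, led with 16 members on chromosome 16, of which 13 were non-repeat and 6 on coding parts, with scores from 1.51 to 3.03. Csmd1, which encodes a complement regulator, had 15 over 1643 kb, all of them repeats and none on an exon. C130026I21Rik had 14 in 278 kb, and Gpc6, a glypican, 12, of which 9 were repeats.

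Some genes held several non-repeat members on coding parts, and those named here were chosen after their values were seen. Ryr1, the calcium release channel of skeletal muscle, had 7 in 122 kb, all on coding parts, with scores from 1.47 to 3.52. Fat1, a large atypical cadherin, likewise had 7 of 7 on coding parts. Acacb, an acetyl-CoA carboxylase, had 8, of which 7 were on coding parts. Dnah8, a dynein heavy chain of the axoneme, had 9 with 6 on coding parts, and Cit, the citron kinase of cytokinesis, had 9 with 5. Wwox differed from them. It had 8 non-repeat and 2 repeat members in 913 kb, and none was on an exon. Cntnap2, an adhesion protein of neurons, had 11 members over 1511 kb, all repeats in introns.

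Few members were strong in every list. The authors' p was 0.001 or less in all 3 hMeDIP-seq lists for 130 members, of which 113 (86.9%) were repeats. Groups 1, 2 and 3 gave 30, 27 and 28 of them, and group 4, with 1390 members, gave 1. Along the score of the both-exposure list the share of repeats was 68.4% in the lowest 1710 members and 80.6% in the highest 1710, and the share on exons was 25.1% and 14.2%. The highest score belonged to a group 2 place on X, chrX:107737979-107738353, with 14.57 in the both-exposure list, 12.54 in the maternal list and 8.17 in the adult list. It lies 44398 bp from 2610002M06Rik. Group 2 gave 4 more of the 10 strongest, at chr19:15713689-15714058 (13.29, 8.79 and 11.26), chr17:54113336-54113711 (12.47, 8.92 and 9.74), chr2:21300534-21300877 (11.75, 13.21 and 3.56) and chr14:36596659-36596993 (11.24, 8.59 and 6.74). All 4 lie between genes, nearest to Gm24319, Gm37966, Gm13327 and Gm24394. A group 1 place on X, nearest to Gm5398, had 11.13, 7.58 and 12.81. An intron of Gm47760 on chromosome 10 held a pair of repeat members that scored high in the both-exposure list and lower in the others, with 11.49, 2.52 and 1.48 at the one and 11.05, 1.29 and 3.20 at the other. By the lowest of its 3 scores, 2 group 1 places also ranked high, one 35712 bp from Nmnat3 on chromosome 9 (9.54, 7.45 and 9.77) and one in an intron of C230004F18Rik on X (8.59, 10.83 and 7.38).

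The strongest non-repeat members were at a few spots, several of them at the shared end of X and Y. An intron of Tmem267 on chromosome 13 had 13.47, 13.82 and 8.68. Sfi1, which encodes a centrosomal protein, had 13.35, 12.77 and 4.24 at a place on an exon on chromosome 11, and a further place in it had 6.59, 5.95 and 2.74. Mid1, a ubiquitin ligase whose gene spans the pseudoautosomal boundary in C57BL/6 mice, had 7 members within 17.2 kb, all non-repeat, with scores from 2.22 to 10.35. The strongest, in an intron, had the highest minimum of all members, with 10.35, 9.06 and 13.06 and with 31 CpG in 335 bp. A place on an exon of Mid1 had 7.68, 7.80 and 9.02. Of the 17 non-repeat members with a p of 0.001 or less in all 3 lists, 8 lay on X or Y, and 4 of these in Mid1. At all of the 8 but the intron of Mid1, 62.3% or more of the 51-bp windows have another copy in the genome. One place in the pseudogene Mid1-ps1 on Y had 4.97, 5.89 and 16.98. Another member on Y, near Mid1-ps1, had 9.71, 9.98 and 1.82, and all of its 51-bp windows have further copies, 7 at the median.

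The sequences of 3 of these places and of 2 coding exons are shown as 201 bases around the peak centre, on the plus strand of GRCm38 with each CpG in capitals, because they carry strong non-repeat rows and because Tet3 and Notch1 stand for the rows on coding exons. These 2 exons were picked after the values were seen. The numbers of CpG in the stretches, from the Tmem267 intron to the Notch1 exon, are 9, 23, 11, 14 and 17.
Tmem267 intron, chr13:119597626-119597826: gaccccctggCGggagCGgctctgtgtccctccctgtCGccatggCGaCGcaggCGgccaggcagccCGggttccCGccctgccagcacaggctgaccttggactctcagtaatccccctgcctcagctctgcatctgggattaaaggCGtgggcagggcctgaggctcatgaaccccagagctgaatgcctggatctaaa
Mid1 intron, chrX:169994070-169994270: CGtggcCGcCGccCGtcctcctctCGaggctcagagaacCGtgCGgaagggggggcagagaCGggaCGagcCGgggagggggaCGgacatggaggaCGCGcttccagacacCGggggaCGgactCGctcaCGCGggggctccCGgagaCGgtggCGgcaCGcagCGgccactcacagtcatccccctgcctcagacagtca
Mid1 exon, chrX:169985862-169986062: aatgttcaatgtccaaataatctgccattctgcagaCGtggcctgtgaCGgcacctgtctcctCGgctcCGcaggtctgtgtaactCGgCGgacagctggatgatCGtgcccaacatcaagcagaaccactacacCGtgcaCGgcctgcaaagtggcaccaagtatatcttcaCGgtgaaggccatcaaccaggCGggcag
Tet3 exon, chr6:83375679-83375879: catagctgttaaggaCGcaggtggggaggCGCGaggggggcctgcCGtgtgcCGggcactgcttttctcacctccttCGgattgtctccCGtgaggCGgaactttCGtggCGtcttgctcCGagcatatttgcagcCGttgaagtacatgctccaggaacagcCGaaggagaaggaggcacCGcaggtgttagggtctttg
Notch1 exon, chr2:26465443-26465643: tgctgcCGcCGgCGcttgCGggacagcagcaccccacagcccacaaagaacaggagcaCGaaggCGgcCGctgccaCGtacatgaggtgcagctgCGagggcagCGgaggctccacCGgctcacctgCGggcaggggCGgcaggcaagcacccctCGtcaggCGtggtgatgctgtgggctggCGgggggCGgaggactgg

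Some genes of DNA methylation and demethylation held members on coding exons. Of 20 genes that write, read or remove DNA methylation 8 held a non-repeat member (40%), beside the 14.2% of all protein-coding genes. The 4 with the highest scores are named here. Tet1 and Tet3 encode dioxygenases that make 5hmC. Tet1 had 3.90, 1.91 and 2.50 in the 3 hMeDIP-seq lists and Tet3 had 3.65, 1.46 and 2.63. Tdg, the glycosylase that removes the further oxidized bases, had 3.14, 1.62 and 2.06, and Mbd1, a reader of methylated CpG, 3.44, 1.66 and 2.35. Of 28 chromatin regulators 10 held one (35.7%), among them Arid1b, a subunit of the BAF remodeller (3.87, 1.51 and 2.54), Kmt2b, a histone H3 lysine 4 methyltransferase (3.23, 1.82 and 2.86), and the corepressor Ncor1 (3.00, 2.04 and 1.53). The chromatin genes are long, with a median span of 77.9 kb. Genes of DNA methylation have 21.3 kb and all protein-coding genes 17.4 kb. The shares were not adjusted for span.

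Collagen genes had the highest share of the lists, and those of Notch, TGF-beta and Wnt signalling were closer to the 18.6% of all protein-coding genes. Of 44 collagen genes 21 held a member (47.7%) and 17 a non-repeat one, with a median span of 114 kb. No share in this paragraph was adjusted for span. The strongest members of Col4a4 and Col4a3, chains of basement membrane collagen, were repeats in introns, of group 3 (3.63, 2.90 and 2.51) and group 9 (3.38, 2.28 and 2.50). Col4a2 had one on a coding exon (2.96, 1.92 and 1.55). Of 22 genes of Notch signalling 6 held a member (27.3%). The receptor Notch1 had 3.71, 2.09 and 3.67, with 24 CpG in its place, Notch3 had 3.25, 1.41 and 1.58, and Notch2 had 3.04, 1.45 and 2.19, each on a coding exon. Maml3, a coactivator of the pathway, had a repeat member of group 4 in an intron (3.52, 2.32 and 1.78). Of 29 Wnt genes 6 held one (20.7%). Wnt7b, a ligand made by the lung epithelium, had 3.63, 1.96 and 4.55 with 33 CpG, Wnt11 had 3.78, 1.49 and 2.20, and the signal transducers Dvl3 and Dvl2 had 3.04, 2.16 and 3.19, and 2.92, 1.65 and 2.09. In the TGF-beta list 7 of 27 genes held a member (25.9%), with Smad9 on a coding exon (3.89, 2.25 and 2.11), Smad5 in a group 4 repeat of an intron (3.80, 2.78 and 2.40), and the latent TGF-beta binding proteins Ltbp4 (3.43, 1.73 and 2.29) and Ltbp3 (3.26, 1.77 and 1.46) on coding exons.

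Marker genes of lung cell types lay on both sides of the 18.6% of all protein-coding genes, with epithelium, leukocytes and endothelium below it and mesenchyme above. Of 30 genes of the lung epithelium 2 did (6.67%), Abca3, the lipid transporter of type II cells (2.54, 1.82 and 1.38), and Cldn18, a tight junction protein (1.86, 1.33 and 1.49). Of 31 leukocyte genes 2 did (6.45%), Pax5, the B cell factor (3.35, 1.36 and 1.8), and Runx1 (3.34, 1.97 and 2.10). The endothelial list gave 2 of 20 (10%). Tek, the angiopoietin receptor, had a group 3 repeat in an intron (3.97, 1.97 and 2.50), and Erg, an endothelial transcription factor, had 2.77, 2.10 and 1.44 in an intron outside repeats. In mesenchyme and smooth muscle 8 of 23 did (34.8%), among them Mylk, the myosin light chain kinase (3.43, 1.66 and 2.76), Notch3, the factor Tbx4 (2.85, 1.33 and 2.33) and Myocd, the coactivator of smooth muscle genes (2.44, 1.81 and 1.41). Of 27 genes of type 2 immunity 3 did (11.1%). Il1rl1, the receptor for IL-33, had a repeat member in an intron (3.25, 2.38 and 3.10). Rora, a factor needed by innate lymphoid cells, had one on a Rora exon and on exon 1 of the overlapping Gm15511 (2.79, 1.56 and 1.86). The nearest start of any transcript was 75 bp away, and the gene it belongs to was not recorded. Il4ra, the receptor chain for IL-4 and IL-13, had 1.76, 1.29 and 1.39. Its score in the maternal list is close to the lowest of any member, 1.28. The median spans were 7.04 kb for the epithelial genes, 21.1 kb for leukocytes, 27.9 kb for endothelium, 39.9 kb for mesenchyme and 12.8 kb for type 2 immunity, and the shares were not adjusted for span.

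Among gene families, read against the 18.6% of all protein-coding genes with a member, Hox, olfactory receptor and ribosomal protein genes had the lowest shares and Zfp genes were near it. None of 39 Hox genes held a member. Of 1092 olfactory receptor genes 22 did (2.01%). The strongest were at Olfr164 (3.19, 2.11 and 1.90) and at Olfr1152 and Olfr1055, in repeats of groups 6, 8 and 3, and at Olfr322 on a coding exon (2.93, 1.89 and 2.46). Of 76 ribosomal protein genes 3 did (3.95%), and all 3 are copies of ribosomal protein genes, the tissue-restricted Rpl39l (3.21, 1.56 and 2.0), Rpl3l (2.48, 1.32 and 1.74) and Rpl10l (2.12, 1.70 and 4.41). Of 29 imprinted genes 3 did (10.3%), Magel2 (2.57, 1.29 and 1.61), Kcnq1 (2.33, 1.8 and 1.53) and Airn, whose member lies on an exon of Mas1 (2.86, 2.01 and 1.82). Of 365 Zfp genes 59 did (16.2%), with the highest score at Zfp936 in an intron, on a group 5 repeat (5.34, 3.00 and 2.08). Zfp980 had 3.96, 3.41 and 1.48, Zfp407 3.38, 1.65 and 1.90, and Zfp865 3.37, 1.93 and 2.96. Hox, olfactory receptor and ribosomal protein genes are short, with median spans of 3.49, 5.99 and 3.27 kb. Zfp genes and all protein-coding genes both have 17.4 kb, and imprinted genes 30.7 kb. These shares were not adjusted for span either.

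Of 24 genes of the study's main table with a known span 4 held a member (16.7%, beside 18.6% of all protein-coding genes), and the study picked that list from these libraries. Col23a1, a transmembrane collagen, had a group 3 repeat in an intron (3.32, 2.95 and 2.58), and Luzp2 a group 5 repeat in an intron (3.05, 1.32 and 2.55). Kcnh1, a potassium channel, had a place on a coding exon (2.46, 1.92 and 3.13), and Muc19, a secreted mucin, one on an exon (2.37, 1.30 and 1.88).

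The rule left a margin that was narrow in bases. The overlap with the row of the maternal list was 353 bp at the median (quartiles 342 and 378) and with that of the adult list 352 bp. Just inside the threshold, 83 and 60 members shared under 50 bp, and the smallest overlap was 1 bp in both. Just outside, 9794 rows missed only the maternal list, 146 of them by under 100 bp, and 11786 missed only the adult list, 80 of them by under 100 bp. Their median scores were 1.85 and 2.01, against 2.48 for members. A further 4616 rows were in all 3 hMeDIP-seq lists and were left out by a MeDIP-seq row, with a median score of 2.85. The nearest MeDIP-seq row was 8648 bp from a member at the median, and 12.4% had one within 1 kb. Member rows had a median length of 356 bp, and the rows they met were longer, with 450 bp for the member rows of the maternal list and 698 bp for those of the adult list when the rule starts from these lists.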

How the data were processed

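Lung DNA of 4 groups was captured for 5mC (MeDIP-seq) or 5hmC (hMeDIP-seq) and sequenced, with fragments of about 200 bp and 1 pooled library per group and assay. Bowtie 0.12.9, mm10, FastQC and CASAVA 1.8.0 stand in the submitters' processing notes, and peaks came from CLC Genomics Workbench per the paper. Each deposited row has a position, a length and closest genes (other units), a peak shape score computed by the authors from the read coverage, and the authors' p-value, listed up to 0.1, while the paper's methods name a false discovery rate of 0.001 for peaks. All rows were used. First and second libraries were read from the label of each list. Reads, and so depth, were not analysed here.

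Overlap meant 1 shared base or more. Sequence and repeat marking (lower-case bases) came from the RefSeq copy of GRCm38 and annotation from GENCODE vM21. Transcription starts were those of any transcript. Copies were found with BLAST+ 2.17.0 (blastn, E value 1e-20). Other work used pandas 2.3.3, numpy 2.4.6, numba 0.67.0, matplotlib 3.10.9 and scipy 1.17.1 under Python 3.11.15. Functions were tested on simulated data. The members and gene lists were chosen with earlier results of these data known. Named were genes at the 10 highest scores, the 10 highest minimum scores, the 8 genes with most members, up to 4 genes of each list by score, and genes of the study's main table. Of the genes so named, 1 is not reported here. Sequences with a run of 31 bases or more on chromosome 18 were not printed. Alternatives were a 50% overlap, a p of 0.001 or less, a distance of 1 kb to MeDIP-seq rows, another starting list, no multi-copy members, other distances and windows, and, added after the data were seen, other repeat and word thresholds.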

Additional observations from a re-analysis of the deposited data

How the results depend on the processing

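Of 51 alternative values 27 stayed within 1.5 times the count or within the interval of the value reported. With a p of 0.001 or less there were 130 members in 45 genes, 86.9% of them repeats, 8.46% within 2 kb of a start, 6.15% on exons and 35.4% in genes, with 5.87 CpG per 100 bp and a median score of 4.90. Without members of mostly multi-copy sequence there were 6828, with 26.5% near a start, 53.3% on exons, 68.8% in genes, 4.56 CpG per 100 bp and a score of 2.45. Starting from the rows of the maternal list, CpG content was 4.87 per 100 bp, and from the adult list it was 3.85, with 24.7% on exons and 68.6% repeats; rows of these lists are longer. A distance of 1 kb or 5 kb put 9.64% or 23.8% near a start. A 50% overlap gave a score of 2.50, a window of 200 bp 6 CpG per 100 bp, and a repeat threshold of 25% or 75%, added after the data were seen, 71.3% or 67.4% repeats. No paired analysis was possible because each group gave 1 library per assay. Depth per peak is unknown, so no error could be given for a score.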
